A study of Mus musculus with 14 samples.

Results

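Solute carriers (gene symbols Slc) are membrane proteins that move amino acids, sugars, ions, metals, nucleotides and other small molecules across the plasma membrane, organelle membranes and the inner mitochondrial membrane. Most work as exchangers, as cotransporters driven by sodium or proton gradients, or as facilitators down a gradient. In the aortic wall they feed smooth muscle cells, fibroblasts, endothelial cells and resident or recruited macrophages with fuel and building blocks, and some mark particular cells, such as the phagosomal metal transporter Slc11a1 in macrophages or Slc12a1 in the kidney tubule.

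The solute carrier genes described here are those whose symbol is Slc followed by a digit and whose level reached 1 FPKM in at least 3 of the 14 libraries of mouse ascending aorta. FPKM is the authors' unit of level, fragments scaled to transcript length and library size. The gene table names 371 genes of this kind among 32289, and 226 met the rule, as did 13294 genes of all kinds. Of the 226, 177 reached 1 FPKM in all 14 libraries and 49 in 3 to 13 libraries. Within the family, members were thus chosen by their FPKM levels in any libraries, and this rule used no comparison between groups. The family itself was chosen with earlier results of these data known. The set therefore cannot be taken as independent of the group differences tested on it. The FPKM rule did admit 15 genes that reached 1 FPKM in no PBS library, which could enter only through the other groups. It admitted none that reached 1 FPKM in PBS libraries only. The third-highest library, which decides entry, stood at 1.03 FPKM for Slc9a2, 1.06 for Slc25a13, 1.08 for Slc22a7 and 1.09 for Slc24a4 just inside the limit. It stood at 0.974 FPKM for Slc22a28, 0.961 for Slc7a9, 0.922 for Slc15a2 and 0.886 for Slc29a2 just outside. The 145 genes below the limit include Slc7a11, a cystine and glutamate exchanger. Of the 226, 6 are not transporters, such as the scaffold genes Slc9a3r1 and Slc9a3r2.

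All mice were C57BL/6, and aortas were taken at 6 weeks of an aneurysm model based on β-aminopropionitrile (BAPN), which blocks lysyl oxidases and with them the cross-linking of collagen and elastin fibres. The groups were PBS without BAPN (n = 3 libraries), BAPN (n = 4), BAPN with Cilengitide (n = 3) and BAPN with SB273005 (n = 4), where Cilengitide is a cyclic RGD peptide and the labels call both compounds integrin αV inhibitors. The labels give no dose, age or sex, and do not say whether samples came from separate or pooled mice. The p-values therefore reflect the spread among these libraries, which may be technical. The BAPN, Cilengitide and SB273005 groups are each compared with the same 3 PBS libraries.

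The promoters below belong to 4 genes picked with the results known, and not by a ranking. They include Slc5a3, higher with SB273005 than with BAPN alone, and Slc7a8, higher in every BAPN-fed group. The others are Slc11a1 and Slc37a2, known from macrophages and higher with both inhibitors. Each promoter is the 250 bases before the RefSeq start site, read 5′ to 3′ on the gene's strand in GRCm38.p6. The letters GAGGAA (or TTCCTC on the other strand), the core bound by the myeloid factor PU.1, are in capitals.
Slc5a3, chr16:92058072-92058321 (plus strand): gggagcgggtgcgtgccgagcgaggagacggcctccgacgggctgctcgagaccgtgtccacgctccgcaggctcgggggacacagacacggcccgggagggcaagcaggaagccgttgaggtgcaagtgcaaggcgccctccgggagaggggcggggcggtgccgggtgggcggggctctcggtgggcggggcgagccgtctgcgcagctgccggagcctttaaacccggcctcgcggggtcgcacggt
Slc7a8, chr14:54781887-54782136 (minus strand): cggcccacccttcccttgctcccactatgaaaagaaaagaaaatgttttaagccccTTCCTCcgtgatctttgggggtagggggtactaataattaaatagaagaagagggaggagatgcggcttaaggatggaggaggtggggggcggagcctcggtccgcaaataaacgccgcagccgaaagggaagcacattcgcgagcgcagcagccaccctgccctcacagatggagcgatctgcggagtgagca
Slc11a1, chr1:74374953-74375202 (plus strand): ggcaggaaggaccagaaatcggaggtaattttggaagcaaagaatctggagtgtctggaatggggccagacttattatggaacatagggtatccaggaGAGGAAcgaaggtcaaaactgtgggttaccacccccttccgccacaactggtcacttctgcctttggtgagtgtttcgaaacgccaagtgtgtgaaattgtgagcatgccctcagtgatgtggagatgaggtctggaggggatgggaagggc
Slc37a2, chr9:37255739-37255988 (minus strand): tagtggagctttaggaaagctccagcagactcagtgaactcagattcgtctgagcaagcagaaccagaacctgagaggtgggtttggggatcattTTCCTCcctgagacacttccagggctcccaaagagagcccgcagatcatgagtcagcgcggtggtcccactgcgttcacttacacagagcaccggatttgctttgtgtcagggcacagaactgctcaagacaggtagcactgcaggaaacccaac
Counted back from the start site, the 6 letters lie from -194 to -189 in Slc7a8, from -152 to -147 in Slc11a1 and from -155 to -150 in Slc37a2. The Slc5a3 window does not hold them. The windows of Slc6a9, lower with both inhibitors, and Slc12a1, known from the kidney, hold them too. Those of Slc45a3, Slc3a2 and Slc2a12 do not. The 6 letters occur on either strand in 23.3% of 32851 RefSeq windows of this length, and in 34 of the 167 solute carrier genes that matched a window (20.4%). Of the other carriers known from macrophages, Slc7a7 is among the 34. Slc15a3, Slc29a3 and Slc40a1 are not, and they either lack the letters or matched no window. The E-box letters CACGTG occur in 25 of the 167 windows (15%), against 6.02% of all windows. The letters TATAAA occur in 8 (4.79%) against 12.4%, and TGATGNAA, a C/EBP-ATF element, in 4 (2.4%) against 3.45%. The tonicity enhancer motif, known from osmolyte transporter genes such as Slc5a3, is in 2 (1.2%) against 4.31%, and not in this Slc5a3 window.

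Total counts ran from 49027885 to 72584877 per library, and solute carrier genes took 0.874 to 0.98% of them. Aortic smooth muscle genes were present in every library, with Acta2 at 2724 to 6417 FPKM except in SB273005 replicate 2, where it was 548 FPKM and mitochondrial genes took 17.9% of counts against 4.1 to 10.2% elsewhere. The libraries also fall into 2 sets that the labels do not give: the class II gene H2-Ea, silent in C57BL/6 as far as is known, was at 0 counts with PBS and in SB273005 replicates 1 to 3, and at 83 to 130 counts in the other 8. All PBS libraries are in the first set, and all BAPN and Cilengitide libraries in the second. The sets therefore cannot be told apart from the difference between PBS and either of these groups, while SB273005 spans both. As SB273005 replicates 1 to 3 are in the first set, its comparisons with BAPN and with Cilengitide largely follow the sets too.

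Mean levels over the 14 libraries ran from 0.615 to 148 FPKM, with a median of 4.19 FPKM against 5.14 for all tested genes. There were 51 genes at 10 FPKM or more and 57 under 2 FPKM. The most abundant were the mitochondrial ATP and ADP exchangers Slc25a4 (148 FPKM) and Slc25a5 (75.5 FPKM), the lysosomal haem transporter Slc48a1 (90.2 FPKM) and the zinc importer Slc39a1 (70.3 FPKM). Among amino acid carriers the highest were the glutamine transporters Slc1a5 (47.5 FPKM) and Slc38a2 (38 FPKM). Among the 2 most abundant genes of each class, the nucleoside transporter Slc29a1 had 41.9 FPKM and Slc43a3, put in the same class, 35.2 FPKM. The zinc transporter Slc39a7 of the secretory pathway had 42.3 FPKM, and the potassium and chloride cotransporter Slc12a4 33.8 FPKM. The sugar transporters Slc50a1 (29.4 FPKM) and Slc2a1 (13.1 FPKM) stood above the other sugar carriers. The lowest class median was 2.39 FPKM, for the 10 carriers of monocarboxylates and other organic acids. The highest was 19.9 FPKM, for the 4 genes of the nucleoside class. Medians were 2.81 FPKM for the 35 amino acid carriers and 5.29 FPKM for the 39 mitochondrial carriers.

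**Figure D1:**
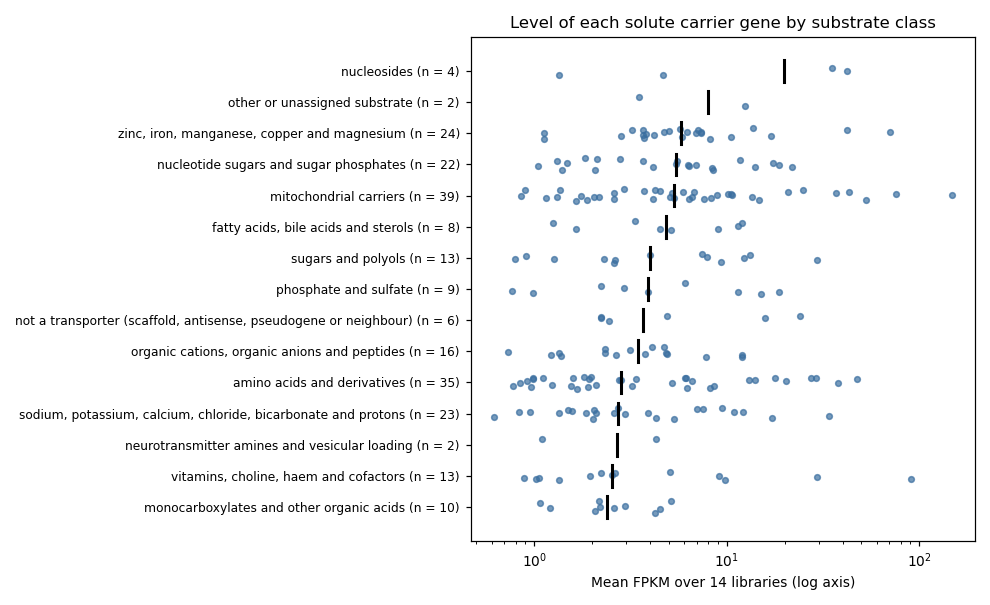
Mean FPKM over 14 libraries on a log axis for each of the 226 solute carrier genes (points), by substrate class (rows, with the number of genes), with the class median as a black bar. Mitochondrial carriers span the widest levels, up to 148 FPKM, and the nucleoside class has the highest median, 19.9 FPKM.

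In the comparisons with PBS, a gene is counted as higher or lower when edgeR's quasi-likelihood test gave a Benjamini-Hochberg adjusted p under 0.05 over all 13294 genes. With BAPN alone, 2 solute carrier genes were higher and 0 lower, or 0.885% of 226 against 0.233% of all tested genes. With Cilengitide, 22 were higher and 4 lower, or 11.5% against 5.58%. With SB273005, 30 were higher and 15 lower, or 19.9% against 13.2%. By direction, the Cilengitide calls were 9.73% higher against 3.98% and 1.77% lower against 1.6%, and the SB273005 calls were 13.3% higher against 7.82% and 6.64% lower against 5.38%. The 15 genes that reached 1 FPKM in no PBS library gave both BAPN calls, 9 of the 26 Cilengitide calls and 7 of the 45 SB273005 calls, all higher. Without them, 13 were higher and 4 lower with Cilengitide, and 23 and 15 with SB273005. The share of all tested genes under the same exclusion was not computed. These counts therefore do not show whether solute carriers stand apart from other genes. Groups did not overlap in FPKM for 53 members with BAPN (23.5% against 14.6% of all tested genes), 89 with Cilengitide (39.4% against 31.9%) and 63 with SB273005 (27.9% against 23.2%). The median log2 difference of the 226 was 0.13, 0.12 and 0.13 in the BAPN, Cilengitide and SB273005 comparisons, against 0.00, -0.02 and 0.02 for all tested genes. In all, 53 genes were called in at least 1 of the 3 comparisons, which share their PBS libraries. Of these, 18 were called with both inhibitors, which is 69.2% of the Cilengitide calls and 40% of the SB273005 calls, and Slc7a8 and Slc12a1 were called in all 3.

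**Figure D2:**
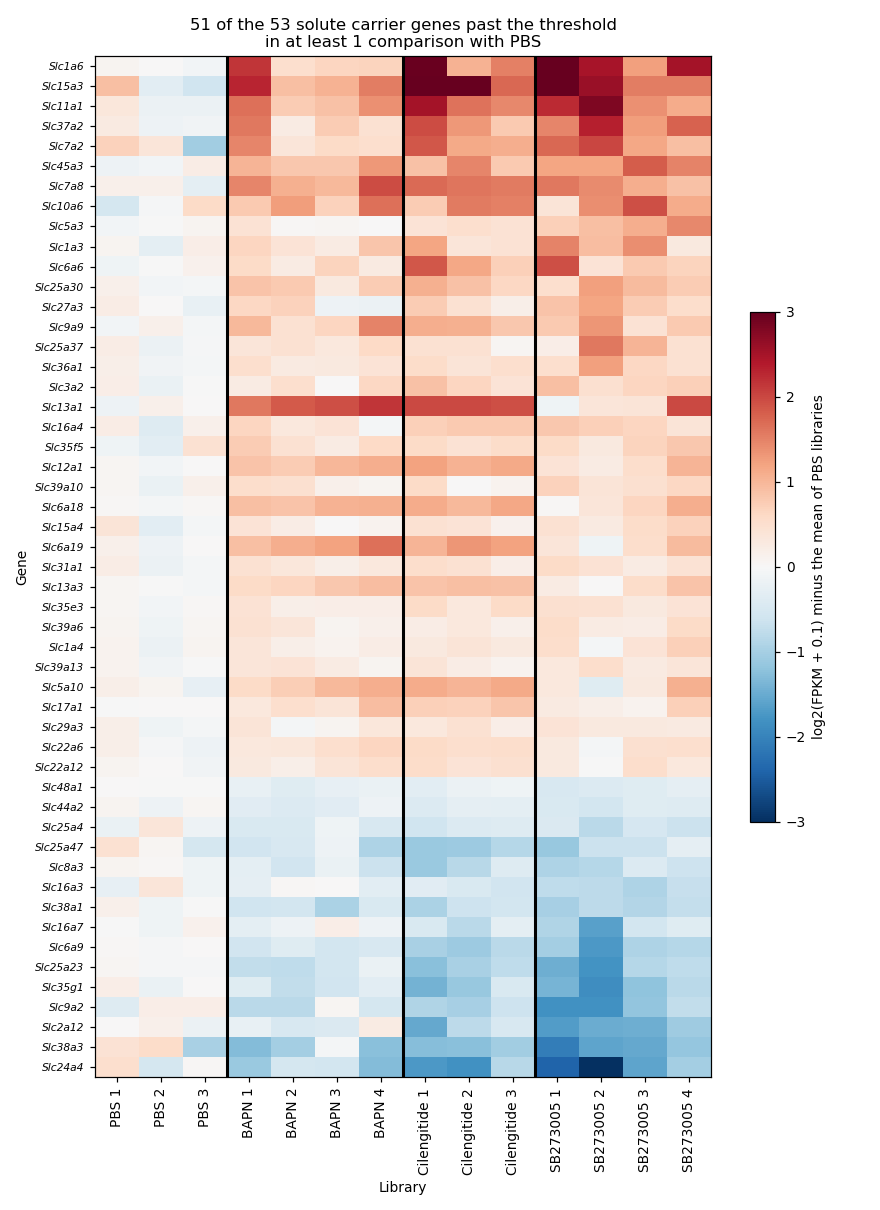
Heat map of log2(FPKM + 0.1) minus the mean of the PBS libraries for 51 of the 53 solute carrier genes past the threshold in at least 1 comparison with PBS (rows), in the 14 libraries (columns, with lines between groups). Red is higher and blue lower than PBS, with colours capped at 3 in either direction, and the rows were chosen for these differences.

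The counts depend on single libraries. Counts under other fits, here and in later paragraphs, are given without the share of all tested genes in the same fit. They show how the calls move, and not whether solute carriers stand apart from other genes. With 1 library left out, the BAPN count was 0 in 10 of 14 fits, 1 without BAPN replicate 3, and 9, 12 and 7 without SB273005 replicates 1, 2 and 4. In the same fits the Cilengitide count ran from 3 to 40: it was 11, 3 and 12 without PBS replicates 1, 2 and 3, 8 and 6 without Cilengitide replicates 1 and 2, and 40 without SB273005 replicate 2. The SB273005 count ran from 11 to 43, and was 25, 11 and 23 without PBS replicates 1, 2 and 3. It was 43 without SB273005 replicate 2. With only the 6 libraries of the first set, 15 solute carrier genes passed with SB273005, 9 higher and 6 lower, and all 15 are among the 45. Among them are Slc45a3, Slc5a3, Slc1a3, Slc11a1, Slc7a8, Slc37a2, Slc3a2 and Slc1a6 on the higher side, and Slc38a1, Slc2a12, Slc35g1, Slc6a9, Slc25a23 and Slc9a2 on the lower side. With the library set as a term in the fit, 42 passed with SB273005, 0 with BAPN and 0 with Cilengitide. That term is estimated from the SB273005 group alone, where only replicate 4 is in the second set.

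**Figure D3:**
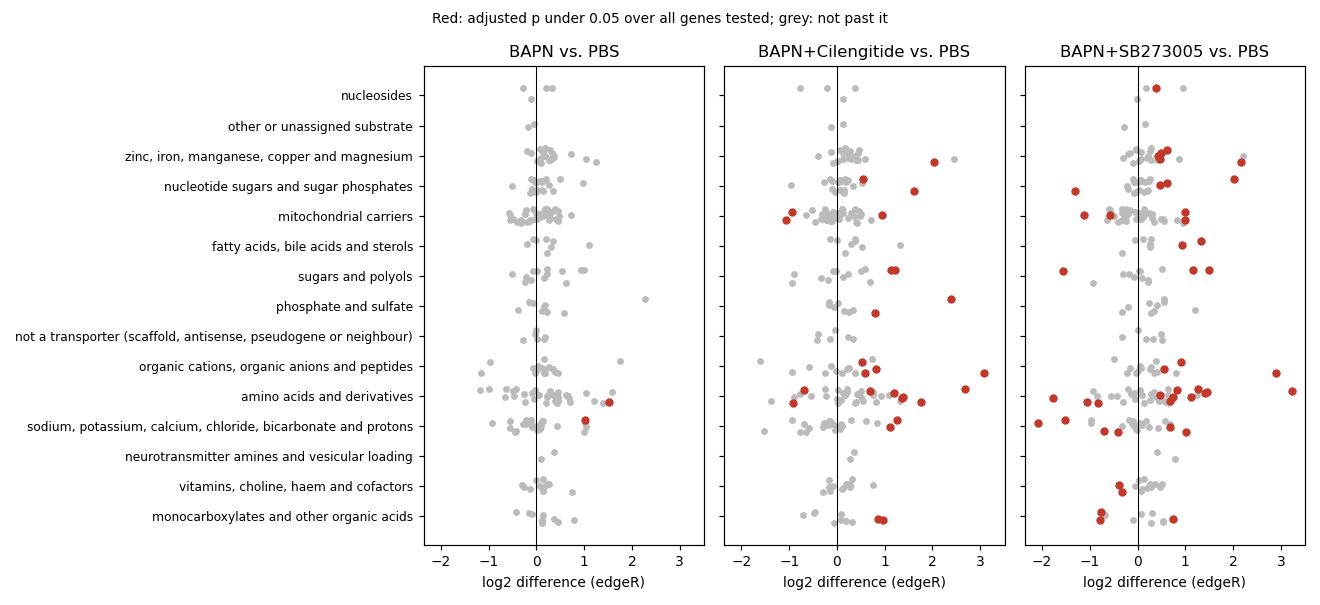
Log2 difference from PBS (horizontal axis, edgeR) of each of the 226 solute carrier genes by substrate class (rows), for BAPN, BAPN with Cilengitide and BAPN with SB273005. Red points passed an adjusted p of 0.05 over all tested genes, 2, 26 and 45 in the 3 panels, and grey points did not.

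By number, amino acid carriers gave the most calls with the inhibitors: of 35 measured, 6 were higher and 2 lower with Cilengitide (22.9% against 5.58% of all tested genes), and 9 were higher and 3 lower with SB273005 (34.3% against 13.2%). With BAPN, 1 was higher, Slc7a8 (2.86% against 0.233%). Without the 5 of the 35 that reached 1 FPKM in no PBS library, 3 were higher and 2 lower with Cilengitide (16.7%). With SB273005, 6 higher and 3 lower were then left (30%), and 0 passed with BAPN. The 8 Cilengitide calls became 5 and 2 without PBS replicates 1 and 2, 4 without Cilengitide replicate 1 or 2, 13 without SB273005 replicate 2 and 0 in the fit with a library set term. The 12 SB273005 calls became 3 without PBS replicate 2 and 6 with the first library set only. The median log2 differences of the class were 0.28, 0.37 and 0.34 in the BAPN, Cilengitide and SB273005 comparisons, and -0.02, 0.25 and 0.22 when the library set was fitted. Without SB273005 replicate 4 the SB273005 median was 0.22. Slc7a8, a transporter of large neutral amino acids (ENSMUSG00000022180, chr14:54722209-54781946), had 0.859, 0.868 and 0.607 FPKM in the PBS libraries, 2.3, 1.73, 1.6 and 3.27 with BAPN, 2.72, 2.56 and 2.45 with Cilengitide and 2.52, 2.22, 1.74 and 1.49 with SB273005. Every BAPN-fed library lay above every PBS library, and the BAPN-fed groups overlapped each other. The log2 difference from PBS was 1.51 ± 0.26 (SE) with BAPN, 1.77 ± 0.27 with Cilengitide and 1.42 ± 0.26 with SB273005 (edgeR adjusted p = 0.04, 0.00606 and 0.00606). The BAPN call held in 4 of the 14 fits that left out 1 library, with an adjusted p of up to 0.144 (without PBS replicate 2), and both inhibitor calls held in all 14. Slc7a8 does not part the library sets.

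Slc3a2, the heavy chain that carries Slc7a8 and related light chains to the cell surface, had 14.7, 11.2 and 12.7 FPKM with PBS, 15.1, 18, 12.9 and 19.9 with BAPN, 23.8, 19.9 and 17.1 with Cilengitide and 23.8, 17.9, 20.1 and 21.1 with SB273005. All libraries with an inhibitor lay above all PBS libraries, and the BAPN libraries spanned the gap. Slc3a2 was higher with Cilengitide (log2 0.70 ± 0.16, edgeR adjusted p = 0.025) and with SB273005 (0.75 ± 0.15, 0.00897), and its BAPN difference was 0.37 ± 0.15 (adjusted p = 0.338). The Cilengitide call was lost without PBS replicate 2 or 3 (adjusted p = 0.104 and 0.071) and without Cilengitide replicate 1 or 2 (0.111 and 0.0874), and the SB273005 call without PBS replicate 2 (0.0531).

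Slc6a9, the glycine transporter GlyT1 (ENSMUSG00000028542, chr4:117834506-117875198), was lower with both inhibitors. Its libraries held 12.8, 12 and 12.4 FPKM with PBS, 8.29, 9.61, 8.4 and 8.91 with BAPN, 6.31, 5.8 and 6.99 with Cilengitide and 6.09, 3.7, 6.47 and 6.77 with SB273005. The 3 BAPN-fed groups lay wholly below PBS, and both inhibitor groups wholly below BAPN. The log2 differences from PBS were -0.92 ± 0.16 with Cilengitide and -1.05 ± 0.15 with SB273005 (edgeR adjusted p = 0.00962 and 0.00229), held in all 14 fits, and -0.49 ± 0.15 with BAPN (adjusted p = 0.171). Slc6a9 shares its locus with B4galt2 and Ccdc24 on the other strand, and the strand setting of the counting is not given in the sources used here. B4galt2 had a log2 difference of -0.25 with SB273005 (edgeR adjusted p = 0.0688).

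Slc38a1, which brings glutamine and other neutral amino acids into cells, had 2.58, 2.12 and 2.31 FPKM with PBS, 1.51, 1.57, 1.17 and 1.68 with BAPN, 1.17, 1.48 and 1.56 with Cilengitide and 1.11, 1.31, 1.23 and 1.39 with SB273005. Every BAPN-fed library was below every PBS library. It was lower with Cilengitide (log2 -0.69 ± 0.15, edgeR adjusted p = 0.0185) and SB273005 (-0.83 ± 0.13, 0.00389), while the BAPN difference of -0.65 ± 0.13 had an adjusted p of 0.0537. The SB273005 call held in all 14 fits, and the Cilengitide call was lost without PBS replicate 1 or 2 or Cilengitide replicate 1 (adjusted p = 0.0524, 0.0571 and 0.079). Slc38a3, a glutamine transporter, was lower with SB273005 (log2 -1.77 ± 0.41, edgeR adjusted p = 0.0168, and 0.0785 without PBS replicate 2). Slc38a2, the neighbour of Slc38a1 by position and within 100 kb of it, had a difference of 0.45 with SB273005 (edgeR adjusted p = 0.0894).

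Slc6a6, the taurine transporter, had 14.3, 15.5 and 17.2 FPKM with PBS, 23.4, 18.4, 25 and 18.9 with BAPN, 56.9, 34.8 and 25.8 with Cilengitide and 59.5, 20.9, 27 and 25 with SB273005. Cilengitide replicate 1 and SB273005 replicate 1 were far above the rest. Slc6a6 was higher with Cilengitide (log2 1.36 ± 0.36, edgeR adjusted p = 0.0454) and SB273005 (1.13 ± 0.34, 0.0454), but each call held in 4 of 14 fits, with an adjusted p of up to 0.191 without Cilengitide replicate 1 and 0.13 without PBS replicate 1. Without SB273005 replicate 1, its SB273005 difference was 0.69. Slc1a6, a glutamate transporter known from Purkinje cells, was near 0 with PBS at 0.166, 0.152 and 0.136 FPKM. It had 1.01, 0.254, 0.291 and 0.3 FPKM with BAPN, 1.85, 0.42 and 0.619 with Cilengitide and 2.52, 1.29, 0.488 and 1.32 with SB273005, so the spread within groups was wide. Its log2 difference with SB273005 was 3.24 ± 0.71 (edgeR adjusted p = 0.0131, and 0.0583 without PBS replicate 2) and with Cilengitide 2.67 ± 0.72 (0.0474, held in 4 of 14 fits, up to 0.215 without Cilengitide replicate 1). The glutamate transporter Slc1a3 (log2 1.26 ± 0.31), the lysosomal amino acid exporter Slc36a1 (0.83 ± 0.18), the neutral amino acid transporter Slc1a4 (0.48 ± 0.14) and the arginine transporter Slc7a2 (1.45 ± 0.42) were higher with SB273005 as well (edgeR adjusted p = 0.0207, 0.0123, 0.0381 and 0.0408). Slc1a3 lost its call without PBS replicate 1 or 2 (0.0558 and 0.0912), and Slc36a1 without PBS replicate 2 (0.057). The Slc1a4 call held in 4 of 14 fits and the Slc7a2 call in 5, with adjusted p of up to 0.142 (without PBS replicate 2) and 0.111 (without PBS replicate 3).

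**Figure D4:**
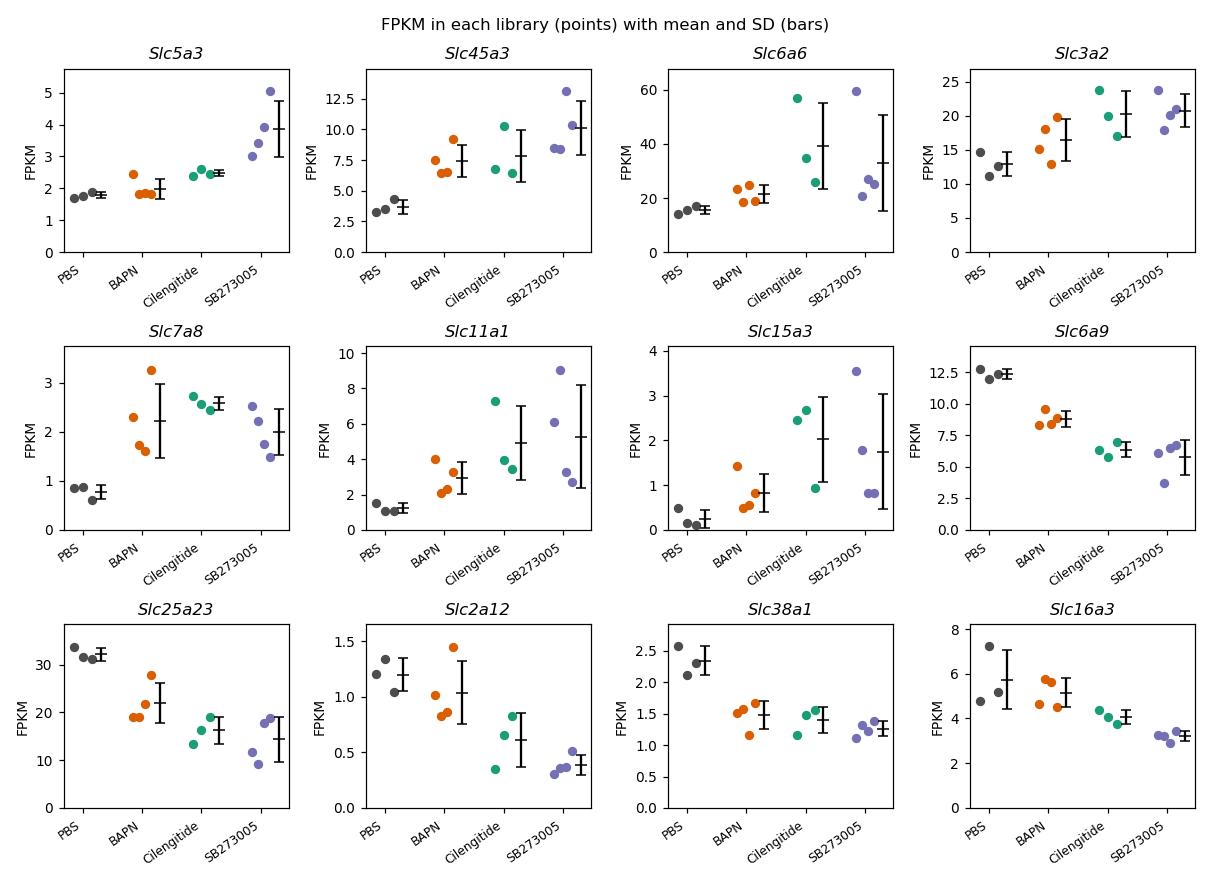
FPKM of 12 solute carrier genes in each library (points) by group, with the group mean and SD beside them, on axes that start at 0. Slc5a3 is highest in the SB273005 group at 3.02 to 5.07 FPKM, Slc7a8 is above PBS in every BAPN-fed library, and Slc6a9 and Slc25a23 are below PBS in every BAPN-fed library.

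Of the 13 sugar and polyol carriers, 0 passed with BAPN, 2 were higher with Cilengitide (15.4% against 5.58% of all tested genes), and 2 were higher and 1 lower with SB273005 (23.1% against 13.2%). Without the 2 of them that reached 1 FPKM in no PBS library, 1 was higher with Cilengitide (9.09%). With SB273005, 2 higher and 1 lower were then left (27.3%). The Cilengitide count was 0 without PBS replicate 2 or Cilengitide replicate 2 and in the fit with a library set term. It was 2 without SB273005 replicate 2 or 4 and 1 in the 10 other fits that left out 1 library. Slc5a3, the sodium and myo-inositol cotransporter that cells use to take up an osmolyte (ENSMUSG00000089774, chr16:92058322-92087473), had 1.7, 1.77 and 1.9 FPKM with PBS, 2.46, 1.83, 1.86 and 1.82 with BAPN, 2.4, 2.59 and 2.44 with Cilengitide and 3.02, 3.44, 3.92 and 5.07 with SB273005. The SB273005 libraries lay wholly above all others. Slc5a3 was higher with SB273005 than with PBS (log2 1.16 ± 0.17, edgeR adjusted p = 0.00229), a call that held in all 14 fits and with the first library set only (log2 1.02, adjusted p = 0.0273). With Cilengitide the difference from PBS was 0.51 ± 0.17 (adjusted p = 0.107) and with BAPN 0.15 ± 0.16 (0.809). Slc5a3 lies within the locus of Mrps6, a mitochondrial ribosomal protein gene on the same strand, so the split of reads between them is uncertain. Mrps6 had 12.2 to 24.0 FPKM and a log2 difference of 0.29 ± 0.19 from PBS with SB273005 (edgeR adjusted p = 0.33).

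Slc45a3, a sugar transporter known as prostein (ENSMUSG00000026435, chr1:131962967-131982969), had 3.26, 3.47 and 4.32 FPKM with PBS, 7.47, 6.46, 6.49 and 9.21 with BAPN, 6.79, 10.2 and 6.42 with Cilengitide and 8.47, 8.39, 13.1 and 10.4 with SB273005. All 11 BAPN-fed libraries lay above all PBS libraries. The log2 difference was 1.50 ± 0.21 with SB273005 (edgeR adjusted p = 0.00229, held in all 14 fits) and 1.13 ± 0.22 with Cilengitide (0.0142), where the call was lost without PBS replicate 2 or Cilengitide replicate 2 (0.061 and 0.056). With BAPN it was 1.00 ± 0.21 (adjusted p = 0.0537). The glucose transporter Slc2a12 was lower with SB273005: its libraries held 1.21, 1.34 and 1.05 FPKM with PBS, 1.02, 0.824, 0.863 and 1.44 with BAPN, 0.347, 0.655 and 0.83 with Cilengitide and 0.306, 0.36, 0.371 and 0.517 with SB273005. SB273005 lay wholly below PBS and BAPN, and overlapped Cilengitide. The difference from PBS was -1.57 ± 0.30 (edgeR adjusted p = 0.00758, held in all 14 fits), and Tbpl1, which overlaps it on the other strand, had -0.21 (adjusted p = 0.232). The insulin-responsive glucose transporter Slc2a4 had -0.89 with Cilengitide and -0.94 with SB273005 (adjusted p = 0.168 and 0.0738), and the basal glucose transporter Slc2a1 had -0.18 with SB273005 (0.63).

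Of the 24 carriers of zinc, iron, manganese, copper and magnesium, 0 passed with BAPN, 1 was higher with Cilengitide (4.17% against 5.58% of all tested genes) and 5 were higher with SB273005 (20.8% against 13.2%), and 0 were lower in each. The class medians were 0.22, 0.26 and 0.24 on the log2 scale, and the SB273005 median was 0.14 without PBS replicate 2. Of the 24 differences, 22 were positive with BAPN, 20 with Cilengitide and 18 with SB273005. Among all 13294 tested genes, 6694, 6287 and 6952 were positive. With SB273005 the 5 were the phagosomal metal transporter Slc11a1, the copper importer Slc31a1 (log2 0.49 ± 0.12, edgeR adjusted p = 0.0198) and the zinc transporters Slc39a6 (0.47 ± 0.12, 0.0236), Slc39a13 (0.44 ± 0.11, 0.0241) and Slc39a10 (0.62 ± 0.16, 0.0268). Slc39a13 had 15.4, 13.3 and 14.3 FPKM with PBS and 17.9, 20.6, 17.3 and 18.4 with SB273005, without overlap. The 5 became 2, 1 and 2 without PBS replicates 1, 2 and 3, 3 without SB273005 replicate 1 and 1 with the first library set only. Slc31a1, Slc39a6, Slc39a10 and Slc39a13 all lost their calls without PBS replicate 2 (adjusted p = 0.0866, 0.0925, 0.113 and 0.0871). The Cilengitide count was 0 without PBS replicate 2 or 3 or Cilengitide replicate 1 or 2 and in the fit with a library set term. It was 2 without Cilengitide replicate 3 or SB273005 replicate 1 or 3, and 4 higher and 1 lower without SB273005 replicate 2. Slc39a6, Slc39a13 and Slc31a1 each overlap another gene on the other strand, and without strand their reads cannot be told apart. The iron exporter Slc40a1, the zinc importer Slc39a14 and the zinc exporter Slc30a1 did not pass in any comparison with PBS.

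Of the 39 mitochondrial carriers, 0 passed with BAPN, 1 was higher and 2 lower with Cilengitide (7.69% against 5.58% of all tested genes), and 2 were higher and 2 lower with SB273005 (10.3% against 13.2%), shares near those of all tested genes. The Cilengitide count was 0 without PBS replicate 2 or Cilengitide replicate 1 or 2 and in the fit with a library set term, and 1 without PBS replicate 1 or 3 or Cilengitide replicate 3. The SB273005 count was 2 without PBS replicate 2 or 3 or SB273005 replicate 3, and 1 with the first library set only. Slc25a23, a calcium-regulated carrier of ATP-magnesium and phosphate, had 33.7, 31.5 and 31.2 FPKM with PBS, 19.1, 19, 21.8 and 27.8 with BAPN, 13.4, 16.4 and 18.9 with Cilengitide and 11.6, 9.18, 17.7 and 18.8 with SB273005. All BAPN-fed libraries lay below all PBS libraries. It was lower with SB273005 (log2 -1.11 ± 0.22, edgeR adjusted p = 0.00779, held in all 14 fits) and with Cilengitide (-0.94 ± 0.23, 0.0368), where the call was lost in 6 of the 14, up to 0.151 without Cilengitide replicate 1. Slc25a4, the heart and muscle form of the ATP and ADP exchanger, had 166, 243 and 170 FPKM with PBS and 141, 107, 133 and 120 with SB273005. PBS replicate 2 was the highest of all libraries. Slc25a4 was lower by edgeR (log2 -0.58 ± 0.17, adjusted p = 0.0409), but without PBS replicate 2 the difference was -0.33 (0.215), and the call held in 5 of 14 fits. Slc25a30 was higher with both inhibitors (log2 0.95 ± 0.21 and 0.99 ± 0.20, edgeR adjusted p = 0.022 and 0.00856), and the iron importer Slc25a37 with SB273005 (1.00 ± 0.27, 0.0328), with overlapping groups. The Cilengitide call of Slc25a30 was lost without PBS replicate 2 or 3 (0.079 and 0.0668) or Cilengitide replicate 1 or 2 (0.0881 and 0.0715). Slc25a37 lost its call without any 1 PBS replicate (0.0622, 0.116 and 0.0908) or SB273005 replicate 3 (0.0564), and without SB273005 replicate 2 its difference was 0.63. Slc25a47, known from liver, was lower with Cilengitide (-1.07 ± 0.29, 0.0468), a call that held in 6 of 14 fits, up to 0.162 without Cilengitide replicate 1. The sum of 8 liver marker genes was 26.4 to 468.6 FPKM with PBS against 11.8 to 23.5 with Cilengitide, and their part in the Slc25a47 difference was not tested.

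Of the 10 carriers of monocarboxylates and other organic acids, 0 passed with BAPN. With Cilengitide, 2 were higher and 0 lower (20% against 5.58% of all tested genes). With SB273005, 1 was higher and 2 lower (30% against 13.2%), and the class median log2 difference was 0.17. With 1 library left out, the Cilengitide count ran from 0 to 2 and the SB273005 count from 0 to 3. Slc16a3, the lactate exporter of glycolytic cells, was lower with SB273005. Its libraries held 4.76, 7.24 and 5.19 FPKM with PBS, 4.66, 5.79, 5.64 and 4.51 with BAPN, 4.4, 4.07 and 3.76 with Cilengitide and 3.28, 3.21, 2.92 and 3.45 with SB273005. SB273005 lay wholly below PBS, BAPN and Cilengitide. The difference from PBS was -0.79 ± 0.17 (edgeR adjusted p = 0.0109, and 0.0541 without PBS replicate 2). Slc16a7 was lower as well (-0.77 ± 0.24, 0.0498, held in 2 of 14 fits, up to 0.142 without PBS replicate 3), and the lactate importer Slc16a1 did not pass.

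Of the 23 carriers of sodium, potassium, calcium, chloride, bicarbonate and protons, 4 were lower and 2 higher with SB273005 (26.1% against 13.2% of all tested genes), 2 were higher with Cilengitide (8.7% against 5.58%) and 1 with BAPN (4.35% against 0.233%). Without the 2 of them that reached 1 FPKM in no PBS library, the 4 lower with SB273005 were left (19%), and 0 with Cilengitide and BAPN. The SB273005 count was 1 without PBS replicate 1, 0 without PBS replicate 2 or 3, 3 without SB273005 replicate 1 and 1 with the first library set only. The Cilengitide count was 1 without any 1 PBS replicate, BAPN replicate 1 or 3, Cilengitide replicate 1 or 2 or SB273005 replicate 4. It was 4 without SB273005 replicate 2 and 0 in the fit with a library set term. The BAPN count was 2 and 3 without SB273005 replicates 1 and 2, 1 without SB273005 replicate 4 and 0 in the 11 other fits that left out 1 library. Among the 4 were the sodium and proton exchanger Slc9a2 (log2 -1.52 ± 0.36) and the sodium and calcium exchangers Slc24a4 (-2.09 ± 0.59) and Slc8a3 (-0.71 ± 0.22), with edgeR adjusted p of 0.0195, 0.0351 and 0.0478. Slc24a4 fell to 0.221, 0.0627, 0.471 and 0.74 FPKM from 2.3, 1.08 and 1.64 with PBS, and its call was lost without any 1 PBS replicate (adjusted p = 0.0921, 0.0651 and 0.0789) or without SB273005 replicate 1 or 3 (0.0768 and 0.0536). Slc9a2 lost its call without PBS replicate 2 or 3 (0.0754 and 0.061), and the Slc8a3 call held in 3 of 14 fits, up to 0.148 without PBS replicate 2. Of the 13 carriers of vitamins, choline, haem and cofactors, 0 were higher and 2 lower with SB273005 (15.4% against 13.2% of all tested genes). That share is near that of all tested genes. Of the 13 differences 10 were positive, against 6952 of 13294 for all tested genes. The class median was 0.14, and the count of calls ran from 0 to 2 with 1 library left out. The 2 were the haem transporter Slc48a1 (log2 -0.32 ± 0.10, edgeR adjusted p = 0.0434) and the choline transporter-like Slc44a2 (-0.39 ± 0.10, 0.0228), lower by small amounts. Slc44a2 lost its call without any 1 PBS replicate (0.0546, 0.0573 and 0.0829), and that of Slc48a1 held in 4 of 14 fits, up to 0.143 without PBS replicate 2. Of the 22 carriers of nucleotide sugars and sugar phosphates, 2 were higher with Cilengitide (9.09% against 5.58% of all tested genes). With SB273005, 3 were higher and 1 lower (18.2% against 13.2%). Without the 1 gene that reached 1 FPKM in no PBS library, the shares were 4.76 and 14.3%. The counts ran from 0 to 3 and from 1 to 4 with 1 library left out. The lower gene was Slc35g1 (log2 -1.31 ± 0.27, edgeR adjusted p = 0.00965, held in all 14 fits). Its PBS libraries held 2.67, 2.01 and 2.36 FPKM and its SB273005 libraries 0.825, 0.568, 0.947 and 1.29. Of the 16 carriers of organic cations, organic anions and peptides, 4 were higher with Cilengitide (25%) and 3 with SB273005 (18.8%). In both, 0 were lower. Without the 1 gene that reached 1 FPKM in no PBS library, the shares were 20 and 13.3%. With 1 library left out, the counts ran from 0 to 6 and from 1 to 5.

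Of the solute carriers known from macrophages, Slc11a1, Slc15a3, Slc29a3, Slc37a2, Slc40a1 and Slc7a7, 0 of 6 passed with BAPN, 3 with Cilengitide and 4 with SB273005, all higher (50% and 66.7% against 5.58% and 13.2% of all tested genes). Slc15a3, Slc37a2 and Slc40a1 reached 1 FPKM in no PBS library, and of the other 3, 1 passed with Cilengitide and 2 with SB273005. The Cilengitide count was 0 without PBS replicate 2 or 3 or Cilengitide replicate 1 or 2, 5 without SB273005 replicate 2 and 0 in the fit with a library set term. The SB273005 count was 1 and 2 without PBS replicates 2 and 3, and 2 with the first library set only. The median log2 differences of the 6 were 1.00, 1.82 and 2.09 in the BAPN, Cilengitide and SB273005 comparisons. The BAPN median was 1.64 with the library set as a term and 0.46 without BAPN replicate 1, and the SB273005 median was 1.33 without SB273005 replicate 2. Slc11a1 (ENSMUSG00000026177, chr1:74375195-74386052) had 1.55, 1.06 and 1.07 FPKM with PBS, 4, 2.1, 2.3 and 3.3 with BAPN, 7.31, 3.97 and 3.46 with Cilengitide and 6.08, 9.02, 3.27 and 2.72 with SB273005. All BAPN-fed libraries lay above all PBS libraries. The differences were 2.04 ± 0.44 with Cilengitide (edgeR adjusted p = 0.0222) and 2.17 ± 0.43 with SB273005 (0.00849, held in all 14 fits), and 1.25 ± 0.42 with BAPN (0.211). The Cilengitide call was lost without PBS replicate 2 or 3 (adjusted p = 0.0863 and 0.0744) and without Cilengitide replicate 1 or 2 (0.0921 and 0.0521). Slc37a2, a glucose 6-phosphate exchanger of the endoplasmic reticulum, had 0.647, 0.456 and 0.478 FPKM with PBS, 1.77, 0.642, 0.956 and 0.754 with BAPN, 2.3, 1.42 and 0.97 with Cilengitide and 1.61, 3.05, 1.39 and 2.03 with SB273005. It was higher with SB273005 (log2 2.01 ± 0.41, edgeR adjusted p = 0.00957, and 0.0502 without PBS replicate 2) and with Cilengitide (1.61 ± 0.42, 0.0439, held in 7 of 14 fits). Slc15a3, a lysosomal peptide and histidine transporter, had 0.487, 0.156 and 0.11 FPKM with PBS, 1.44, 0.493, 0.553 and 0.822 with BAPN, 2.45, 2.68 and 0.937 with Cilengitide and 3.55, 1.79, 0.824 and 0.823 with SB273005. Its log2 differences were 3.09 ± 0.71 and 2.89 ± 0.69 with the inhibitors (edgeR adjusted p = 0.0267 and 0.0188), and Tmem132a, which overlaps it on the other strand, had 0.00 and -0.21 (0.995 and 0.422). Without PBS replicate 2 or 3, Slc15a3 lost both calls (0.108 and 0.0892 with Cilengitide, 0.082 and 0.0688 with SB273005), and the Cilengitide call also without Cilengitide replicate 1 or 2 (0.0817 and 0.0922).

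A list of 11 macrophage marker genes, which includes none of these 6, summed to 168.7 to 311.6 FPKM with PBS, 338.9 to 800.5 with BAPN, 526.5 to 1035 with Cilengitide and 543.9 to 1127 with SB273005. Of the 11, 1, 9 and 10 were higher in the BAPN, Cilengitide and SB273005 comparisons. The shares of all tested genes called higher were 0.181, 3.98 and 7.82%. The marker lists were chosen with earlier results of these data known. The part of macrophage RNA in the solute carrier differences was not tested, and in bulk tissue more cells and more RNA per cell cannot be told apart. The 8 smooth muscle genes summed to 8927 to 10694 FPKM with PBS and 1184 to 7008 with SB273005, lowest in SB273005 replicate 2. With SB273005, 3 of the 8 were lower, against 5.38% of all tested genes.

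Carriers known from the kidney tubule were present in the ascending aorta libraries. Of a list of 17, 11 are among the 226. The proximal tubule phosphate transporter Slc34a1 had 12.4 to 17.7 FPKM and the urate transporter Slc22a12 9.17 to 14.3 FPKM in all 14 libraries. Of 12 tubule marker genes that are no carriers, 4 were higher in the second library set without overlap, 2 lower, and 6 overlapped. Among all tested genes, 0.624% did not overlap between the sets. Umod had 7.73 to 11.6 FPKM in the first set and 19.8 to 25.8 in the second. Kap, the other way, had 221.1 to 319 FPKM in the first set and 158.8 to 216.6 in the second. The source of these transcripts was not tested.

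Levels of 11 solute carrier genes did not overlap between the 2 library sets, 4.87% of 226 against 0.624% of all tested genes. Higher in the second set were 9: Slc12a1, Slc13a1, Slc13a3, Slc17a1, Slc3a1, Slc4a4, Slc5a10, Slc6a18 and Slc6a19. Lower were Slc22a7 and Slc7a13. All 11 are known from the kidney, and Slc22a7 from liver too. Of the 11 members on the tubule list, 4 were higher in the second set without overlap, 1 was lower and 6 overlapped. Slc12a1, the sodium, potassium and chloride cotransporter of the thick ascending limb, had 0.954, 0.847 and 0.918 FPKM with PBS, 1.71, 1.61, 1.91 and 2.04 with BAPN, 2.22, 1.98 and 2.1 with Cilengitide and 1.24, 1.1, 1.35 and 1.93 with SB273005, where the last value is replicate 4 of the second set. Its log2 differences were 1.01 ± 0.18, 1.25 ± 0.19 and 0.69 ± 0.18 in the 3 comparisons (edgeR adjusted p = 0.0431, 0.00554 and 0.0248), and 0.192 was the adjusted p with SB273005 in the first set alone. The BAPN call held in 3 of 14 fits, up to 0.16 without PBS replicate 2, and the SB273005 call was lost without any 1 PBS replicate (0.0642, 0.0863 and 0.0649). When the library set was fitted too, the BAPN and Cilengitide differences were 0.35 and 0.60 (0.636 and 0.263). The sulfate transporter Slc13a1 had 0.195, 0.262 and 0.227 FPKM with PBS, 0.877, 1.07, 1.15 and 1.35 with BAPN, 1.19, 1.19 and 1.15 with Cilengitide and 0.2, 0.321, 0.324 and 1.19 with SB273005, so SB273005 replicates 1 to 3 kept with PBS and replicate 4 with BAPN. Such genes made up 1 of the 2 BAPN calls, 7 of the 26 Cilengitide calls and 2 of the 45 SB273005 calls, Slc12a1 and Slc6a18. Leaving them out, 15 higher and 4 lower genes are left with Cilengitide and 28 and 15 with SB273005. Slc6a18 and Slc6a19 lie 1722 bases apart on chromosome 13, 1 of 19 pairs of neighbouring members within 100 kb.

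**Figure D5:**
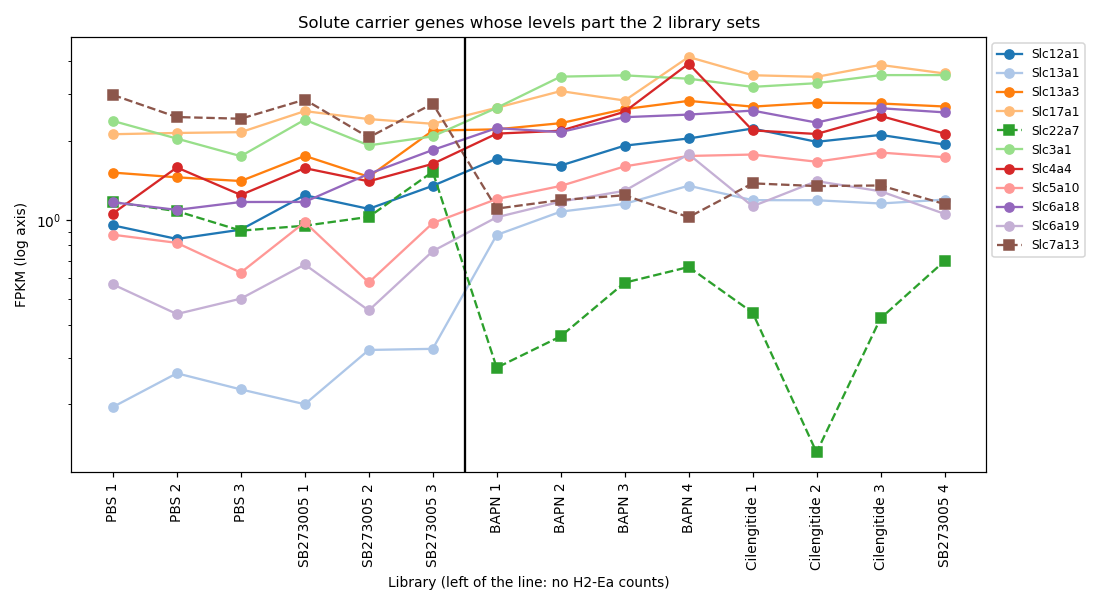
FPKM on a log axis of the 11 solute carrier genes whose levels did not overlap between the 2 library sets, in the 14 libraries (columns), with the first set left of the line and the second right of it. Lines only join the values of 1 gene, squares mark the 2 genes lower in the second set, and SB273005 replicate 4 sits with the BAPN and Cilengitide libraries.

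Against BAPN alone, Cilengitide gave 0 solute carrier calls by edgeR (0% against 0% of all tested genes), with 12 members at an unadjusted p under 0.05 (5.31% against 6.07%) and 0 calls by DESeq2 and by limma on log2(FPKM + 1). The smallest p belonged to Slc6a9 (log2 -0.43 ± 0.15, edgeR adjusted p = 0.795), Slc6a6 (0.90 ± 0.33), Slc35e3 (0.27 ± 0.11) and the mitochondrial pyrimidine nucleotide carrier Slc25a33 (-0.71 ± 0.29), with the same adjusted p. SB273005 gave 1 call against BAPN, Slc5a3 (0.442% against 0.0301% of all tested genes). Of all tested genes, 1 was called higher and 3 lower. The solute carrier family was chosen with earlier results of these data known, so this share is no independent result about the family. At an unadjusted p under 0.05 there were 37 members (16.4% against 16.1%), and DESeq2 called 8. The Slc5a3 difference was 1.01 ± 0.15 (95% interval 0.69 to 1.33, edgeR adjusted p = 0.0468), and all 4 SB273005 libraries were above all 4 BAPN libraries. It held in 3 of 14 fits that left out 1 library, with adjusted p from 0.0142 to 0.22, the highest without BAPN replicate 3 and 0.203 without BAPN replicate 2. Mrps6 differed by 0.40 ± 0.17 there (adjusted p = 0.28). Next by p were Slc2a12 (-1.35 ± 0.29, 0.112), Slc7a13 (1.00 ± 0.24, 0.123) and Slc6a9 (-0.57 ± 0.14, 0.131). Slc7a13 is among the genes that part the library sets. With the library set as a term, the differences of Slc5a3, Slc2a12, Slc7a13 and Slc6a9 were 1.40, -0.94, 0.06 and -0.32. Only SB273005 replicate 4 shares a set with the BAPN libraries in that fit.

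The 2 inhibitors gave 0 calls against each other by edgeR (0% against 0% of all tested genes), 0 by DESeq2, and 27 members at an unadjusted p under 0.05 (11.9% against 9.21%). Slc5a3 was 0.65 ± 0.16 higher in log2 with SB273005 than with Cilengitide (95% interval 0.30 to 1.00, edgeR adjusted p = 0.5), without overlap. With the library set as a term, that Slc5a3 difference was 1.05. The intervals for Slc6a9 (-0.46 to 0.19), Slc45a3 (-0.07 to 0.81), Slc7a8 (-0.88 to 0.18) and Slc11a1 (-0.72 to 1.00) all span 0, and a p that misses the threshold does not show that the compounds act alike. The labels give no dose, so matched doses cannot be assumed.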

How the data were processed

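RNA from ascending aortas was extracted and reverse-transcribed in 14 libraries, per the labels' protocols. The submitters' processing notes name HISAT2 2.2.1, StringTie 2.1.6 and the build mm10. The annotation was not given in the sources used here, nor were read filters and strandedness. The deposited FPKM and the deposited estimated counts, which are whole numbers, were made by the authors for each gene and transcript. Total counts per library were 49027885 to 72584877.

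Testing took the genes that reached 1 FPKM in 3 or more libraries and used edgeR 4.0.16 in R 4.3.3 (TMM, quasi-likelihood, 1 fit over 14 libraries, Benjamini-Hochberg over 13294 genes, threshold 0.05) in 6 comparisons, and solute carrier rows were then read out. Each SE was derived from the F statistic of its log2 difference, so the 95% intervals are approximate. The counts are estimates, so the counting error of the model is approximate too. All 18 replicate pairs differed beyond sampling noise (chi-square per degree of freedom of at least 59.3). The pipeline was tested on simulated data. Substrate classes, role genes and marker lists, like the members themselves, were chosen with earlier results of these data known, and genes were named by rule: up to 10 per direction and comparison past the threshold by smallest p, the 4 of smallest p where fewer than 4 passed, listed role genes and the 2 most abundant of each class. Further genes that complete a class count of 5 or fewer, Slc38a2, Slc2a1, Slc2a4, Slc40a1, Slc7a7 and the genes that part the library sets were named for that reason. Values of 2 members are not reported here. Levels are FPKM and promoters come from RefSeq (GRCm38.p6). Alternatives were DESeq2 1.42.0, its size factors, other FPKM filters, limma 3.58.1 on log2(FPKM + 1) or log2(FPKM + 0.1), FPKM rescaled to a common total, only the 2 groups compared, a replicate block, the library set and each library left out. The setting with the first library set only, class counts under such settings and with each library left out, and alternatives for genes named outside the rule were chosen after seeing the data.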

Additional observations from a re-analysis of the deposited data

Results flagged for a closer look

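In groups of 4 libraries, 16 single values lay far from the rest of their group among 150 groups of 75 genes, and chance flags about 1 in 20 groups. Of the BAPN libraries, replicate 1 stood above the rest in Slc17a9 (1.36 FPKM), Slc1a6 (1.01 FPKM), Slc35e3 (4.53 FPKM) and Slc5a3 (2.46 FPKM). Replicate 2 stood above in Slc20a1 (7.71 FPKM), and replicate 3 above in Slc25a4 (172 FPKM) and Slc38a3 (2.08 FPKM). BAPN replicate 4 stood below in Slc35b1 (18.0 FPKM) and Slc39a7 (41.0 FPKM). Of the SB273005 libraries, replicate 2 stood above in Slc17a9 (2.24 FPKM), Slc40a1 (4.08 FPKM) and Slc66a2 (5.22 FPKM) and below in Slc27a2 (8.91 FPKM). This is the library with the lowest Acta2 and the highest share of mitochondrial counts. SB273005 replicate 1 stood above in Slc6a6 (59.5 FPKM) and below in Slc38a2 (34.8 FPKM), and replicate 4 stood above in Slc13a1 (1.19 FPKM), the library of this group that lies in the second library set.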

How the results depend on the processing

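The 70 differences that passed or were named by rule kept their direction under every alternative run for them. Of 21 other differences given for single genes, 5 changed direction: Slc5a3 with BAPN (-0.40) and Cilengitide (-0.04) vs. PBS with the library set as a term, Tmem132a with Cilengitide (-0.22 to 0.13), and Slc11a1 (-0.83 to 0.53) and Slc6a9 (-0.34 to 0.11) between the inhibitors. The counts of calls moved, and are given here without the share of all tested genes under the same setting. DESeq2 called 17 solute carrier genes in BAPN vs. PBS, 44 in Cilengitide vs. PBS and 8 in SB273005 vs. BAPN, where edgeR called 2, 26 and 1. Without the FPKM filter, which adds genes to the adjustment, the counts were 0, 14, 24 and 0 for BAPN, Cilengitide and SB273005 vs. PBS and SB273005 vs. BAPN, and with FPKM rescaled to a common total they were 0, 17, 18 and 0. That scaling moved the median of all genes by 0.11 in Cilengitide vs. PBS, -0.12 in SB273005 vs. BAPN and -0.20 in SB273005 vs. Cilengitide, and split the calls 17 higher to 0 lower with Cilengitide and 9 to 9 with SB273005. Limma on log2(FPKM + 1) called 0 in BAPN vs. PBS. With only the 2 groups compared, which uses fewer libraries, the counts were 8 for BAPN, 14 for SB273005 vs. PBS and 0 for SB273005 vs. BAPN. With the library set as a term they were 0 for BAPN and 0 for Cilengitide, the Cilengitide differences of Slc11a1, Slc25a23, Slc25a47, Slc13a1, Slc13a3, Slc6a18 and Slc6a19 moved to 3.22, -1.50, -1.62, 0.31, 0.37, 0.42 and 0.63, and the first library set alone, with 6 libraries, gave 15 for SB273005 vs. PBS. Leaving out 1 library, the counts ranged from 0 to 12 for BAPN, 3 to 40 for Cilengitide and 11 to 43 for SB273005 vs. PBS, 0 to 0 for Cilengitide vs. BAPN, 0 to 3 for SB273005 vs. BAPN (3 without SB273005 replicate 4) and 0 to 1 for SB273005 vs. Cilengitide (1 without SB273005 replicate 4). The cause of these moves was not tested beyond what is said of their construction.

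The labels do not say that a replicate number marks a shared animal, batch or day, and not every same-numbered pair correlated over 0.1, so the numbers were not taken as pairs. Over 19 pairs the correlation of deviations ran from -0.16 to 0.34 and 12 were over 0.1. As a hint from the data, 9 of 14 libraries correlated best with their own number. With a replicate block the counts were 8 for BAPN vs. PBS and 0 for SB273005 vs. BAPN (Slc5a3 adjusted p = 0.0506), against 2 and 1, and they stayed within 1.5 times of the counts without it in the other comparisons.

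Groups of 3 or 4 libraries, with 3 PBS libraries in all the comparisons with PBS, set the precision. Genes near 1 FPKM rest on fewer counts than more abundant genes of the same length. Just below the limit, Slc22a28 had 1402 counts and Slc15a2 4615 over the 14 libraries.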

Other observations

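Transcript levels of Slc12a1, the carrier of the kidney thick ascending limb, also differed by library set. In the 6 libraries of the first set nearly all of its FPKM was given to 1 transcript, ENSMUST00000110494, at 0.913 to 1.64 FPKM. A second transcript, ENSMUST00000110495, had at most 0.0951 FPKM there. In the second set, ENSMUST00000110495 had 0.186 to 2.52 FPKM in the 8 libraries, and ENSMUST00000110494 was listed at 0 in BAPN replicates 2 and 4 and Cilengitide replicate 3. The transcripts overlap along most of their length, and the split between them is an estimate of the assembler.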
